A study of Mus musculus with 12 samples.

Results

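FLAG-tagged Zscan4 regions that lie close to the start or end of a protein-coding gene were examined. A listed region belonged to this set when its midpoint on chromosomes 1 to 19 was within 5 kb of either end of a protein-coding gene, and genes with a span of 400 kb or more were left out. The set held 675 regions of the 4759 on the autosomes and of the 4973 in the whole list. The rule used position alone and no score. Each region was assigned to the gene end nearest to its midpoint, and counted as inside when the midpoint fell between that gene's start and end. The strand, and with it the 5′ or 3′ end, was known for 16198 of the 20222 genes used. It was known for no gene on chromosome 18, which is therefore absent from the counts by 5′ or 3′ end and from the promoter sequences.

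The cells were J1, a mouse embryonic stem (ES) cell line of the strain written 12910la in the labels, cultured with serum and leukaemia inhibitory factor. They carried an overexpression plasmid, named for the CMV promoter, with the coding sequence of Zscan4c behind a FLAG tag; 1000 ng were transfected, selection with G418 at 500 ug/ml began after 24 h and ran for 10 days, and single clones were picked. The 12 labelled samples form 12 groups of 1, and the regions come from the FLAG immunoprecipitation of the overexpressing cells (OE_Zscan4), whose input library (OE_Input) was not analysed here. With 1 immunoprecipitation and no replicate, no test between samples was possible, the cells could not be checked against marker genes, and the values below are descriptions whose 95% intervals cover counting error only and treat regions as independent.

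Zscan4 proteins pair a SCAN domain, which mediates contacts between proteins, with zinc fingers that bind DNA. Their genes are transcribed in the 2-cell embryo, and at any time in a few ES cells that pass through a similar state, and the proteins are known for roles in telomere maintenance and at CA-rich repeats. The 5′ end of a gene holds its promoter, which in mouse is often a CpG island free of nucleosomes at its centre, and the 3′ end holds the polyadenylation site and the stretch where transcription terminates.

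A total of 19 listed regions overlapped a promoter window by 1 bp or more. Such a window was taken as the 250 bases before to the 50 bases after an annotated start (19690 windows of 16198 genes, RefSeq, GRCm38.p6). The count expected from position alone was not computed. Of the 19 regions, 16 belonged to the set near gene ends. The other 3, at Rex2, Slc7a15 and Ablim1, overlapped a further start inside the gene that lies beyond 5 kb from its outer ends. The sequences below are the 250 bases before the start, 5′ to 3′, with the bases covered by a FLAG-Zscan4 region in capitals. The first pair is shown because the 2 genes have the same promoter.
Gm15319: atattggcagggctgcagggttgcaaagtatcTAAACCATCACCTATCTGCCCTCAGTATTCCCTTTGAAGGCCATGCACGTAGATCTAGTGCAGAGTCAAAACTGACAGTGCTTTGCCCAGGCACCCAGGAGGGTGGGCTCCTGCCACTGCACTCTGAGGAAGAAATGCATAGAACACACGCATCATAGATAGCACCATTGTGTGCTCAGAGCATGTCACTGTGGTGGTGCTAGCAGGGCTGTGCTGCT
Gm21119: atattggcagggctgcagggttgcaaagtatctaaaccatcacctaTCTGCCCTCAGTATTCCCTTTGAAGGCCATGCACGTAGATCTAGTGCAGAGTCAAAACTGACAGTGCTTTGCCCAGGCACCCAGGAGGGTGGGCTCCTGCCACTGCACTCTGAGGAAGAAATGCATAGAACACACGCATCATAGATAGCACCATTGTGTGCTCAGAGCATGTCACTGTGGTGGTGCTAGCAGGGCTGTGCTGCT
Gm15319 (upstream bases chr8:20363203-20363452, minus strand) and Gm21119 (chr8:20614677-20614926, plus strand) are predicted genes, and all 250 positions were identical. Their regions had scores of 49 and 47. Reads from copies this alike cannot be assigned to one of them with certainty.

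A second pair comes from a family of predicted genes at the start of chromosome 14 and shares a long run of bases.
Gm3278: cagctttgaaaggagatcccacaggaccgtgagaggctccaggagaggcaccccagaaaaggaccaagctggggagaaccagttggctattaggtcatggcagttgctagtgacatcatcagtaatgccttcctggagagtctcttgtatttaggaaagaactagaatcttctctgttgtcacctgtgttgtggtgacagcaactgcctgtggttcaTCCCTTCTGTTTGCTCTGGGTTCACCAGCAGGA
Gm3115: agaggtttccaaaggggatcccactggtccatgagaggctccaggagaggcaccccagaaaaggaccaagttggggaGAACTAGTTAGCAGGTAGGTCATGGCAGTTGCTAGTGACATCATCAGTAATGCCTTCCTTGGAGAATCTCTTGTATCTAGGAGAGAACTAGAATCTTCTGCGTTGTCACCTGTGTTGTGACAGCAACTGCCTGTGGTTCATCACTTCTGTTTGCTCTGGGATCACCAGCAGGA
The longest run that Gm3278 (chr14:4892171-4892420, plus strand) and Gm3115 (chr14:4083914-4084163, plus strand) had in common was 44 bases, and 12 of the 19690 promoter windows held it (0.0609%). The Gm3278 region had a score of 45 and the Gm3115 region one of 21, on either side of the median score of the whole list, 33.

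The third pair is of zinc finger genes on chromosome 13 whose regions sit on the start itself.
Zfp457: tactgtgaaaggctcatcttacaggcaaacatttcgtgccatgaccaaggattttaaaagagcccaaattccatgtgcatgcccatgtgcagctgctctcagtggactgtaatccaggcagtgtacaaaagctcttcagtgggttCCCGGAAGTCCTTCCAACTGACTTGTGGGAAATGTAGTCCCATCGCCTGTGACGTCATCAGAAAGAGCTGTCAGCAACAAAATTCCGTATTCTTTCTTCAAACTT
Zfp72: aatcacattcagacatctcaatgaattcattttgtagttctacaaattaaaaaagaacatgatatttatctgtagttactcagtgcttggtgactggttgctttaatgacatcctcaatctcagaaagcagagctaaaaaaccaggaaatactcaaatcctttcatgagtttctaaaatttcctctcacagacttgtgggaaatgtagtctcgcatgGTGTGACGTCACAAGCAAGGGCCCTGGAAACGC
The Zfp457 region (chr13:67306298-67306517, score 37) had its midpoint 5 bp from the gene's 5′ end, the shortest distance of all 675. The Zfp72 region (chr13:74390603-74390862, score 29) lay 129 bp inside. Their upstream sequences (chr13:67306413-67306662 and chr13:74390830-74391079, both minus strand) shared the run GACTTGTGGGAAATGTAGTC, 20 bases long, which was looked for after the pair had been seen. All 6 promoter windows with this run, on either strand, belonged to zinc finger genes of chromosome 13, namely Zfp457, Zfp72, Zfp458, Zfp595, Zfp874a and Zfp874b, and the last 4 had no listed region within 5 kb of an end. The Zfp457 region covers the run, and the Zfp72 region does not.

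Gja1, which encodes the gap junction protein connexin 43, is shown because its region covered the upstream stretch completely. The region at C130073F10Rik (score 32, sequence not shown) did so too.
Gja1: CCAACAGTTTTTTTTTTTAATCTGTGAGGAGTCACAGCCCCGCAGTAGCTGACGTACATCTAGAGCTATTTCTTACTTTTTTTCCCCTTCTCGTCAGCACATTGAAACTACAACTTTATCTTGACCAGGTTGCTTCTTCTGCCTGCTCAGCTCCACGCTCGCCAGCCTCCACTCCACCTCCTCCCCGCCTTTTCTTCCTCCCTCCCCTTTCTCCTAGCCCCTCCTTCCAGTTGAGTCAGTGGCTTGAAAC
The region (chr10:56377048-56377329, score 41) overlapped 280 of the 300 bases of the Gja1 window (upstream bases chr10:56377050-56377299, plus strand), and its midpoint lay 112 bp before the start.

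The sequence named for Zscan4 binding in vitro was rare in these windows. TGCACAC, on either strand, was found in 1 of the 19 overlapped windows (Zfp72, in the bases after the start), in 19 of 319 windows of genes with a region within 5 kb of the 5′ end (5.96%, exact binomial interval 3.62 to 9.15%) and in 757 of all 19690 windows (3.84%). CA repeated 6 times, which can overlap TGCACAC, was found in 0 of 19, 1 of 319 and 156 of all windows (0.792%). TTAGGG, the telomere repeat, repeated 2 times was found in 0 of 19, 0 of 319 and 3 of all windows. A listed region can lie up to 5 kb from these windows, so they do not describe the sequence of the regions themselves.

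The overlapped windows held fewer CpG dinucleotides than promoters at large. The ratio of observed to expected CpG had a median of 0.111 in the 19 overlapped windows (range 0 to 0.676), against 0.587 in all windows (interquartile range 0.233 to 0.835). This median depended on few loci: without predicted genes it was 0.411 over 12 windows, and without the 1 Mb windows that hold 10 or more listed regions it was 0.449 over 12, both checks added after the value was seen. The median GC content was 49.3% in the overlapped windows and 57.0% in all. In the 319 windows of genes with a region within 5 kb of the 5′ end, the medians were 0.565 for CpG and 54.0% for GC, much nearer to those of all windows.

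The other overlapped promoters with high scores belonged to genes of several kinds. Rex2 had a region of score 94 (chr4:147021793-147022115) over an inner start, 4930550C14Rik one of 77, and Slc7a15, a member of the amino acid transporter family, one of 75 (chr12:8539789-8540189). Mroh2a followed with 71 (chr1:88226535-88226836), Elobl with 63, Ablim1, an actin-binding LIM protein gene, with 62, and Sprr2a2, which encodes a small proline-rich protein of the cornified envelope, with 52 (chr3:92250241-92250608). Zfp27, a zinc finger gene, had 47 (chr7:29906216-29906437). All 19 scores lay between 21 and 94.

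The share of regions near gene ends was close to the share of sequence there. Of the autosomal regions 14.2% (exact binomial interval 13.2 to 15.2%) were within 5 kb of an end, while 301 of 2403 Mb (12.5%) of the autosomal sequence lay there, a ratio of 1.13 (1.05 to 1.21). The direction depended on distance and score, and the excess on the genes taken. Within 1 kb the ratio was 0.871 (0.727 to 1.03), among regions of score 55 or more it was 0.959 (0.814 to 1.12), and without predicted genes it was 1.07 (0.987 to 1.15). The intervals of these 3 ratios include 1.

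Density by distance shows where the regions lay. Within 1 kb of a gene end 126 regions were listed, and their density of 1.72 per Mb had an exact Poisson interval of 1.44 to 2.05, which includes the 1.98 per Mb over all autosomal sequence (1.92 to 2.04). Between 1 and 2 kb there were 2.48 per Mb (2.12 to 2.90) and between 2 and 5 kb 2.38 (2.15 to 2.63). Density was highest just outside the set, at 3.10 per Mb between 5 and 10 kb (631 regions, 2.86 to 3.35) and 2.97 between 10 and 20 kb (2.77 to 3.18), with intervals that overlap. It was lower further out, with 2.66 per Mb at 20 to 50 kb (2.5 to 2.82) and 1.08 beyond 100 kb (1.02 to 1.15), a ring that takes in gene deserts, the middle of very long genes and assembly gaps. The neighbourhood of genes was thus dense in listed regions, but the last kb at their ends was not.

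**Figure D1:**
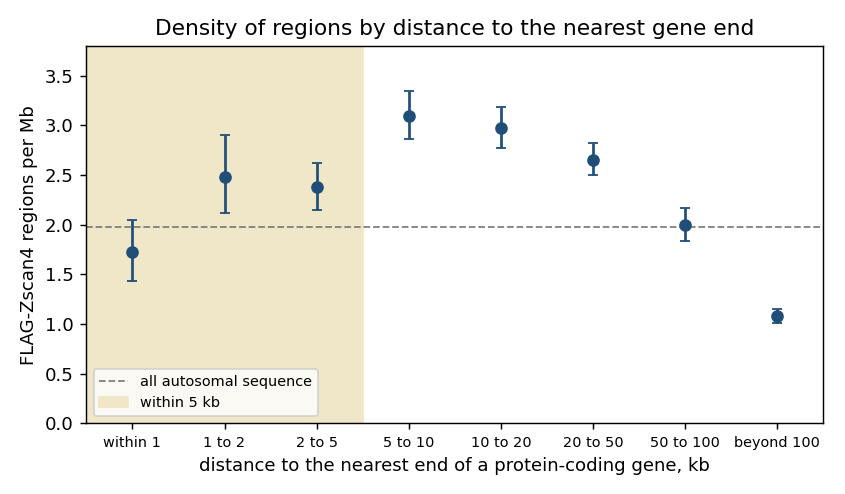
FLAG-Zscan4 regions per Mb of autosomal sequence (y axis) in rings of distance to the nearest end of a protein-coding gene (x axis, kb). Points are densities, bars are 95% exact Poisson intervals and the dashed line is the density over all autosomal sequence; the ring within 1 kb (1.72) lies under the line and the rings at 5 to 10 kb (3.10) and 10 to 20 kb (2.97) are the highest.

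Over all scores, regions near 3′ ends were more numerous than those near 5′ ends. Of the 520 regions whose nearest end had a known strand, 292 (56.2%, exact binomial interval 51.8 to 60.5%) were nearest to a 3′ end and 228 (43.8%) to a 5′ end, and for 155 the strand was unknown. The share at 5′ ends was 46.8% among regions of score 33 or more (40.5 to 53.2%) and 47.2% of regions within 10 kb (44.1 to 50.3%), and both intervals include an even split. The density was 2.47 per Mb at 3′ ends (exact Poisson interval 2.19 to 2.77) and 1.87 at 5′ ends (1.64 to 2.13), and these intervals did not overlap. At 5′ ends the closest kb on either side was sparse: 38 regions, or 1.31 per Mb (0.925 to 1.79), against 2.05 per Mb (1.77 to 2.36) between 1 and 5 kb, a ratio of 0.637 (exact binomial interval 0.437 to 0.906). At 3′ ends the closest kb held 61 regions, or 2.08 per Mb (1.59 to 2.67), against 2.60 (2.27 to 2.95), a ratio of 0.802 whose interval of 0.595 to 1.07 includes 1. Among regions of score 33 or more the ratio at 5′ ends was 0.822, with an interval of 0.502 to 1.30 that includes 1 as well.

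More regions lay outside the gene of the nearest end than inside it. In all, 383 regions (56.7%) were outside the gene of the nearest end and 292 (43.3%, exact binomial interval 39.5 to 47.1%) inside. Of the 383, 31 lay inside another protein-coding gene of any span, which left 352 of 675 outside every such gene (52.1%, 48.3 to 56.0%), an interval that includes an even split. The sequence outside every gene was not measured, so an even split need not be the expected share. By side of the nearest end, density was 2.51 per Mb outside (exact Poisson interval 2.27 to 2.78) and 1.96 inside (1.74 to 2.20). These 2 intervals do not overlap. The share outside the gene of the nearest end was 58.3% at 5′ ends (133 of 228), 58.6% at 3′ ends (171 of 292) and 51.0% where the strand was unknown (79 of 155). Among genes of known strand, the highest density of any kb was found downstream, at 2 to 3 kb past the 3′ end, with 43 regions and 3.73 per Mb (exact Poisson interval 2.70 to 5.02). The lowest was in the first kb inside the 5′ end, with 18 regions and 1.23 per Mb (0.730 to 1.95). Upstream of the start, density was 1.38 per Mb in the first kb (0.844 to 2.13) and 2.80 in the fifth (1.89 to 4.0), and the intervals of these 2 bins overlap.

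**Figure D2:**
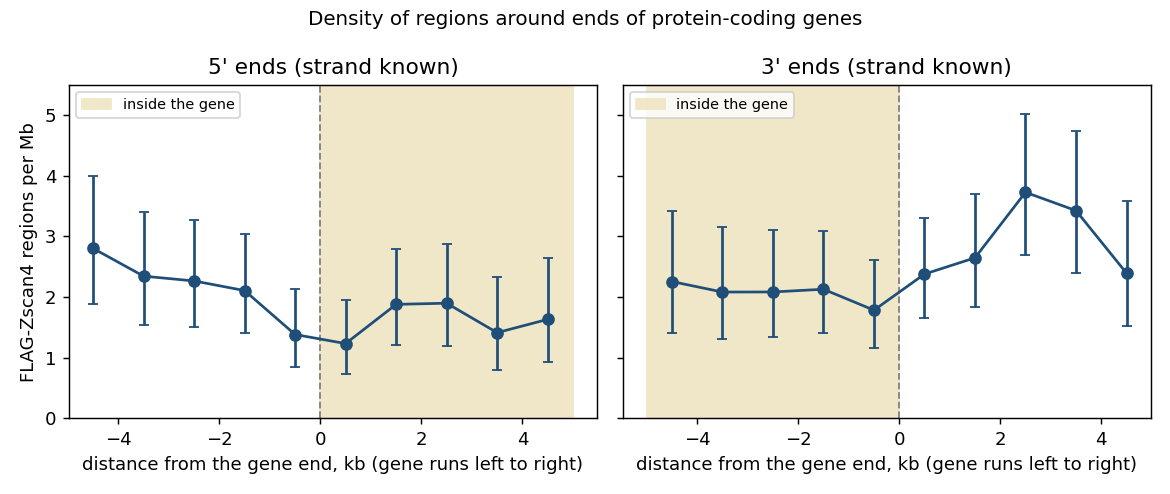
FLAG-Zscan4 regions per Mb (y axis) in bins of 1 kb around 5′ ends (left) and 3′ ends (right) of genes with known strand, by distance from the end (x axis, kb), with the gene drawn from left to right and its inside shaded. Points are densities and bars 95% exact Poisson intervals; the kb on either side of the 5′ end is lowest (1.38 outside and 1.23 inside) and the bin at 2 to 3 kb past the 3′ end is highest (3.73).

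The 5 regions nearest to an end had scores from 13 to 57. After Zfp457 came Defb11, a beta-defensin gene, with a region 18 bp before its 5′ end (chr8:21906333-21906568, score 35), and Gm3115, 30 bp inside. Next were Knop1, 37.5 bp past its 3′ end (chr7:118841951-118842409, score 13), and Eif2b5, which encodes a subunit of the translation initiation factor eIF2B, 45 bp past its 3′ end (chr16:20509117-20509624, score 57). At the outer limit of the rule, the last regions taken in were near Tacc1 (4983.5 bp, score 45), Anapc16 (4979.5 bp, 21) and Sbspon (4969.5 bp, 66), and the first left out near Zbtb2 (5002 bp, 29), Usp6nl (5003 bp, 40) and Gatad2b (5004.5 bp, 63).

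Regions near gene ends were narrow and rarely had a high score. Their median width was 283 bp, with quartiles at 241 and 386 bp and extremes of 219 and 2685 bp, against 310 bp for the other 4084 autosomal regions, and 10 of them (1.48%) were wider than 1000 bp, against 154 (3.77%) of the others. Their median score was 31 (interquartile range 20 to 50, full range 10 to 919), against 33 for the others. The authors gave each region this score, and its scale is not stated. Scores of 100 and above were found for 45 (6.67%, exact binomial interval 4.90 to 8.82%), against 444 of the others (10.9%, 9.93 to 11.9%). Regions near gene ends made up 16.3% of autosomal regions with scores under 23 (14.3 to 18.5%) and 12% of those with scores of 55 or more (10.2 to 14%), but only 6 of the 100 highest (6%, 2.23 to 12.6%).

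In width and score, regions near gene ends resembled those inside shorter genes and inside long non-coding RNA genes. The 1489 regions inside protein-coding genes under 400 kb but beyond 5 kb of their ends had median width 297 bp and median score 31. The 338 regions inside long non-coding RNA genes only had medians of 296.5 bp and 29, and the 227 inside protein-coding genes of 400 kb or more had 311 bp and 35. The 2030 regions outside these genes were the widest, with a median of 328 bp, and had a median score of 35. Within the set near gene ends, the medians of score differed little by place, from 28 (inside, strand unknown) to 35 (outside a 5′ end).

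**Figure D3:**
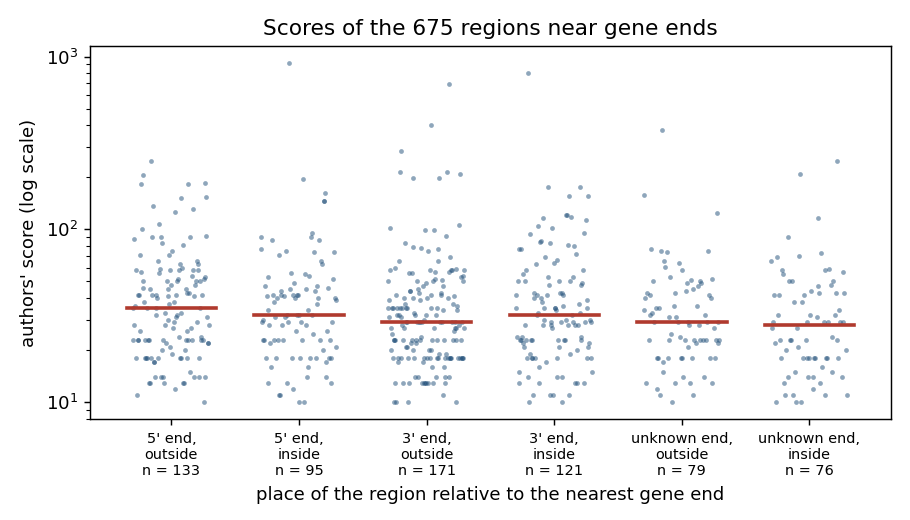
The authors' score (y axis, log scale) of each of the 675 regions near gene ends, by nearest end and side (x axis). Each point is a region and each red line a median; the medians run from 28 to 35, and the 3 scores above 500 are those at Zfp697, Lars2 and Gm21119.

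The 10 highest scores in the set fell at 9 genes, with no common kind. Zfp697, a zinc finger gene, had the highest, 919, in a region 4896 bp inside its 5′ end and so close to the outer limit of the rule (chr3:98386566-98387151). Lars2, the mitochondrial leucyl-tRNA synthetase gene, followed with 801 in a region only 220 bp wide, 674 bp inside its 3′ end (chr9:123461892-123462111). Gm21119 had 694 in the widest region of the set, 2685 bp, past its 3′ end (chr8:20647185-20649869). Gm40469 had scores of 400 and 283 past its 3′ end (chr8:20546481-20546734 and chr8:20548419-20548659). Ly96, which encodes the MD-2 partner of the lipopolysaccharide receptor, had 376 outside its gene (chr1:16710576-16711409, strand unknown). Then came Ccdc112 with 249 inside (chr18:46284108-46284889), Rex2 with 248 at 1628.5 bp before its 5′ end (chr4:146971807-146972157), Ptpa, an activator of protein phosphatase 2A, with 216 past its 3′ end (chr2:30449564-30450081), and Nmi, an interactor of Myc and STAT proteins, with 215 past its 3′ end (chr2:51946374-51947895). Gm21119, Gm40469 and Rex2 lie in 1 Mb windows with 10 or more listed regions, and the other 6 genes do not.

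Seen from the genes, 726 of 20222 protein-coding genes had a region within 5 kb of an end, which is 3.59% (exact binomial interval 3.34 to 3.86%) and is the background for the gene counts that follow. Of the genes with known strand, 267 had one at the 5′ end (1.65%) and 351 at the 3′ end (2.17%), and 55 were counted at both. A total of 688 genes had 1 region, 33 had 2, 4 had 3 and 1 had 4. A region was near the ends of 1 gene in 582 cases and of 2 or more genes in 93 (13.8%), which is why there were more genes than regions.

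The share of genes with a region near an end was lowest among short genes. Of genes under 5 kb, 1.53% had one (exact binomial interval 1.19 to 1.93%), against 3.78% of those of 5 to 20 kb (3.33 to 4.28%), 4.93% of 20 to 50 kb (4.33 to 5.57%) and 3.85% of 100 to 400 kb (3.05 to 4.80%). The windows round the 2 ends of a gene shorter than 10 kb overlap, so less sequence is searched there. The median span was 23.0 kb for genes with a region and 16.8 kb for genes without.

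The genes with most regions at their ends were mainly predicted genes. Gm21119 had 4: one of score 47 over its promoter, a pair of 42 and 96 inside its 3′ end and the 694 past it. Another 3 genes had 3 regions each, spread over both ends: 4930467E23Rik, with scores of 88 and 152 upstream of its 5′ end and 176 inside its 3′ end, Gm15319, with 49 and 90 at its 5′ end and 122 inside its 3′ end, and 2410141K09Rik, with 69 and 24 past its 3′ end and 22 inside its 5′ end. Gm21188 had its 3 at the 3′ end alone (184, 19 and 177). With 2 regions each and the highest summed scores came Gm40469, Gm36079 (184 and 182), Rex2 (248 and 74), the zinc finger gene Zfp991 (209 and 64) and Gm17019 (196 and 37). Reads could be split where such predicted genes have near-identical copies, and which copy carried a region is then uncertain. Of the genes named here, likeness was measured only between the promoters of Gm15319 and Gm21119, which were identical.

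Some regions lay near more than 1 gene. The 5 of highest score were at Ccdc112 and Pggt1b, a subunit gene of a protein prenylation enzyme (249), at Gm36079 and Gm21188 (184), at Duxf3 and Gm4981 (chr10:58230936-58231540, 157), at Pet117 and Kat14, a gene of a histone acetyltransferase complex (chr2:144364798-144365081, 136), and at Lpcat4 and Gm52523 (chr2:112236460-112237398, 132). The Pet117 and Kat14 region lay before the 5′ ends of both genes, at 4044 and 4093 bp. The region at Duxf3 was 1732.5 bp from its 3′ end and 1851.5 bp from its 5′ end, so near the middle of this short gene. In all, 58 regions were within 5 kb of both ends of a single gene.

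Genes were then counted by family or function in 32 lists, beside the background of 3.59%. C2H2 zinc finger genes, the family of Zscan4 itself, had a region near an end in 36 of 450 cases (8.0%, exact binomial interval 5.67 to 10.9%). Of their regions 10 lay in 1 Mb windows with 10 or more listed regions, and outside these windows the share was 6.47% of 433 genes. The highest were Zfp697 (919), Zfp991 (209) and a region of score 126 shared by Zfp553 and Zfp771 (chr7:127240444-127240849). Zscan4c had a region of score 102 (chr7:11009496-11009964), 817.5 bp inside its 3′ end, and since the plasmid carries the same coding sequence, reads from the plasmid and the gene were not separated here. Of the regions near zinc finger genes, 18 were within 5 kb of a 5′ end and 13 of a 3′ end, and their median score was 32.

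Genes of the 2-cell-like state had a region near an end in 6 of 33 cases (18.2%, exact binomial interval 6.98 to 35.5%), and 5 of 32 outside dense windows. The list was chosen with earlier results of these data known, so its count is no independent evidence. Its members were Duxf3, which encodes Dux, the factor that switches on the 2-cell programme (157), Zscan4c (102), the oocyte homeobox gene Obox6 (chr7:15837309-15838155, 69), Calcoco2 (49), Sp110 (36) and Dppa2 (10), the last 3 named after their values were seen. Among naive pluripotency and self-renewal genes 3 of 30 had one (10.0%, 2.11 to 26.5%), all of low score: Dppa3 (18), the leukaemia inhibitory factor receptor gene Lifr (13, centred 56 bp before its 5′ end) and Dppa2 (10).

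For 7 lists no gene had a region near an end. The count was 0 of 109 for Hox, Sox, Fox and Klf transcription factors (exact binomial upper limit 3.33%), 0 of 73 for histone genes (4.93%), 0 of 41 for collagens (8.60%), 0 of 25 for histone methylation enzymes (13.7%), 0 of 23 for histone acetyltransferases and deacetylases (14.8%), 0 of 20 for glycolysis (16.8%) and 0 of 16 for DNA methylation and demethylation (20.6%). The first limit is below the background, but genes of that list have a median span of 4.641 kb. The limit takes in the share among all genes under 5 kb (1.53%) but not that among genes of 5 to 20 kb (3.78%). With this median, many genes of the list may be longer than 5 kb, and no share matched for span was computed. The list of acetyltransferases and deacetylases holds named enzymes and leaves out Kat14, which had the region described above. Absence from the list does not show that a gene end was unoccupied.

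Receptor families of the sense organs were low. Olfactory receptors had a region in 10 of 1103 cases (0.907%, exact binomial interval 0.436 to 1.66%), with Olfr646 (94), Olfr247 (58) and Olfr819 (37) the highest, and vomeronasal receptors in 3 of 351 (0.855%, 0.177 to 2.48%), namely Vmn1r48 (198), Vmn2r2 (59) and Vmn2r83 (44). These genes are short, with median spans of 0.951 and 0.960 kb, and the share among all genes under 5 kb was 1.53%, which lies inside both intervals. That class includes many of these receptors, so its share is not independent of theirs. Whether length accounts for the low counts was not tested.

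The lists of interleukins and chemokines, Rab GTPases and ubiquitin enzymes lay above the background, with intervals that include it. Defensins lay below it, with 2 of 71 (2.82%, exact binomial interval 0.343 to 9.81%). Interleukins, their receptors and chemokines had a region in 8 of 114 cases (7.02%, exact binomial interval 3.08 to 13.4%), led by Il20 (71) and by a region of score 35 that Il18r1 and Il1rl1 share, followed by Il33 and Il4 (29 each). Rab GTPases, which direct vesicle traffic, had 5 of 65 (7.69%, 2.54 to 17.0%), led by Rab14 (40), Rab31 (28) and Rab29 (26). Ubiquitin ligases and proteases had 16 of 305 (5.25%, 3.03 to 8.38%), led by Rnf187 (116), Fbxo42 (84) and, at 58 each, Rnf43 and Ube2e1.

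Among genes of telomere maintenance, 1 of 27 had a region (3.70%), which was Tnks2, the gene of tankyrase 2, a poly(ADP-ribose) polymerase known to act on the telomere protein TRF1 (chr19:36889080-36889424, score 122, inside the 3′ end).

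The other lists stood between 1.20 and 5.66%. Predicted Gm genes had 49 of 956 (5.13%, exact binomial interval 3.82 to 6.72%), led by Gm21119, Gm40469 and Gm17019, but 3.47% outside dense windows, and Riken cDNA genes had 22 of 389 (5.66%), led by 4930467E23Rik (176). Kinesins had 2 of 36 (Kif13b and Kif22), mitochondrial ribosomal protein genes 4 of 78 (led by Mrpl30, 35), Tmem genes 7 of 229 (led by Tmem100, 42) and cytochromes P450 3 of 99 (led by Cyp2ab1, 56). The ribosomal protein pattern took 3 of 91, of which Rpl27 (66) and Rpl38 (30) encode ribosomal proteins and Rps6ka2 a kinase. Serpins had 2 of 62, defensins 2 of 71 (Defb45, 41, and Defb11, 35), potassium channels 2 of 84, Wnt and Fgf ligands 1 of 37 (Wnt8a, 17), keratins 1 of 53 (Krt72, 18) and cadherins 1 of 83 (Cdh1, the E-cadherin gene, 21). Solute carriers had 9 of 355 (2.54%), led by Slc39a6 (55), Slc7a9 (45) and Slc47a2 (35).

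Dense windows are here the 1 Mb windows with 10 or more listed regions. The regions near gene ends were spread over every autosome, from 14 on chromosome 12 to 59 on chromosome 4. The ratio of region share to sequence share near ends was highest on chromosomes 16 (1.76), 14 (1.64), 18 (1.54) and 4 (1.48). It was below 1 on chromosomes 7, 9, 10, 11, 12 and 19, with intervals that include 1, and lowest on chromosome 12 (0.776). The exact binomial interval of the region share lay above the sequence share on chromosomes 4, 14 and 16, and included it on chromosome 18, which had 19 regions near an end. On chromosome 16, 31 of 171 regions (18.1%, 12.7 to 24.7%) were near an end against 10.3% of the sequence, and none of them lay in a dense window. On chromosome 14, 10 of 44 regions near an end lay in dense windows, and on chromosome 4, 15 of 59. On chromosome 8, which held 461 listed regions, the 58 near gene ends were 12.6% of its regions (9.69 to 16%) against 11.7% of sequence, a ratio of 1.07.

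**Figure D4:**
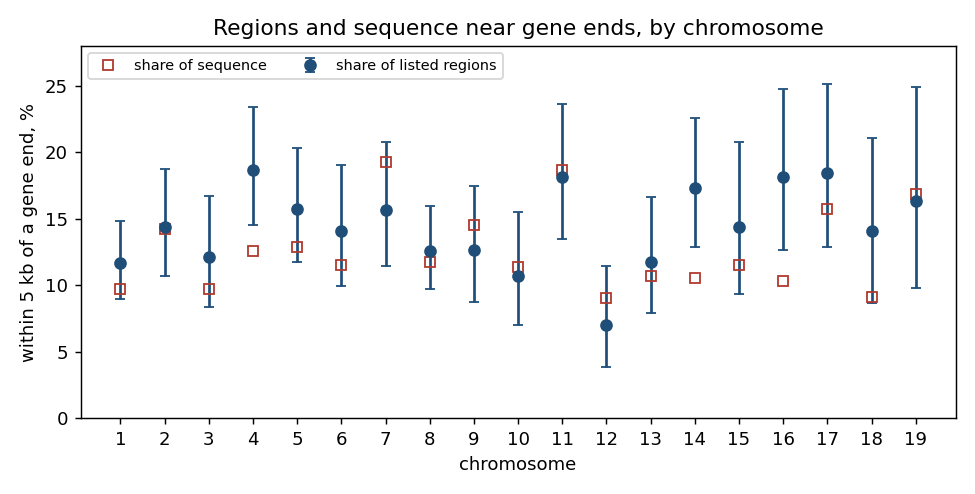
Share of each autosome's listed regions (filled points, with 95% exact binomial intervals) and of its sequence (open squares) that lay within 5 kb of an end of a protein-coding gene (y axis, %), by chromosome (x axis). The interval lies above the square on chromosomes 4, 14 and 16 and includes it on the other 16.

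Regions near gene ends had a close neighbour in the list nearly as often as the other autosomal regions, with intervals that overlap. Of the 675, 88 (13.0%, exact binomial interval 10.6 to 15.8%) had another listed region within 10 kb, against 614 of the other 4084 autosomal regions (15.0%, exact binomial interval from 14 to 16.2%). The 88 had a median score of 45 and the remaining 587 one of 29. Of the 675, 57 lay in dense 1 Mb windows, 15 of them on chromosome 4, 14 on chromosome 8 and 10 on chromosome 14.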

How the data were processed

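FLAG-Zscan4 chromatin immunoprecipitation sequencing of overexpressing J1 cells was analysed from 1 deposited list of regions. Tools named in the submitters' processing notes were Bowtie2, cutadapt, deepTools and MACS2, with the build mm10; no version or threshold is given in the sources used here. The authors deposited a whole-number score per region, of unstated scale, and start and end positions counted from 0, printed here counted from 1. Depth is unknown. All other libraries were not analysed here.

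Genes came from a RefSeq table (GRCm38.p6, the build behind mm10): 20222 autosomal protein-coding genes, after leaving out 338 of 400 kb or more and 105 that start below 3 Mb. A gene's start and end are its outermost ones. Strand and promoter sequence came from a RefSeq promoter table. Sequence was counted from 3 Mb to the last annotated or listed position, gaps included. Intervals are exact (binomial or Poisson, scipy 1.17.1, Python 3.11.15). Placement of regions was checked on simulated positions. Genes were named by rule: the highest scores, most regions, promoter overlaps, shortest distances, both sides of the limit, up to 3 per list (more for some short lists) and shared regions. Some items these rules name are not reported here. Members and lists were chosen with earlier results of these data known. Alternatives changed distance, score limit, overlap, merging, span limit, gene set and windows.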

Additional observations from a re-analysis of the deposited data

Results flagged for a closer look

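The X chromosome was outside the rule, and 12 of its 155 listed regions lay within 5 kb of an end of a protein-coding gene (7.74%, exact binomial interval 4.06 to 13.1%), against 8.92% of its sequence. It was singled out because regions appear there in data that no comparison above used. The highest 3 scores were 491 and 155 at Mid1, a ubiquitin ligase gene, and 153 at Apool, and Mid1 had a further region of 86. On the Y chromosome the count was 0 of 13.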

How the results depend on the processing

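No paired analysis was possible because each group has 1 sample. Of 53 alternatives, 34 left the value inside its 95% interval or, for counts, within 1.5 times. The share of autosomal regions near an end was 2.65% within 1 kb, 6.03% within 2 kb and 27.4% within 10 kb, where the distance itself sets the value, 13.2% among regions of score 33 or more and 12.6% without predicted genes. Its ratio to the sequence share was below 1 within 1 kb (0.871) and for scores of 55 or more (0.959), and was 1.05 within 2 kb, 1.31 within 10 kb 1.05 for scores of 33 or more and 1.07 without predicted genes; of these 6 the interval excludes 1 within 10 kb alone. The share inside the gene was 47.4% within 2 kb, and the share at 5′ ends was 39% within 1 kb, 47.2% within 10 kb, 46.8% for scores of 33 or more and 47.0% for scores of 55 or more; the intervals of the last 3 include 50%. The share of genes with a region was 1.45% within 2 kb, 7.39% within 10 kb and 1.69% for scores of 33 or more. Regions over a promoter window fell to 12 without predicted genes and to 12 without dense windows. For these the cause was not tested. The ratio of density within 1 kb to that at 1 to 5 kb, whose alternatives were chosen after seeing the data, was at 5′ ends 0.822 for scores of 33 or more, where its interval (0.502 to 1.30) includes 1 unlike over all scores, 0.509 without predicted genes and 0.537 without dense windows, and at 3′ ends 0.885, 0.819 and 0.835, whose intervals include 1. Without read counts no limit of detection can be given.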
